A study of Mus musculus with 6 samples.

Results

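Complex I of the respiratory chain is built from subunits of the nuclear and of the mitochondrial genome, and the nuclear part was followed here in heart RNA of control mice and of mice given carbon tetrachloride (CCL4). The members were the rows of the deposited table whose symbol is Nduf, then 1 of the letters a, b, c, s or v, then a number. That rule found 36 of 32479 rows, and it leaves out assembly factors, pseudogenes and the acyl carrier subunit Ndufab1. One row, Ndufa4, carries a complex I name but is now assigned to complex IV, and its values are given apart. The series holds 6 RNA sequencing libraries, 3 from control C57BL/6J mice and 3 from C57BL/6J mice given CCL4, a solvent whose repeated dosing scars the liver, and it asks how liver cirrhosis acts on the heart. Each library is labelled as primary cardiac fibroblasts and, by the design text, stands for its own mouse. The sources used here give no dose, route or duration of CCL4, no age or sex of the mice and no method of isolation.

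Complex I takes electrons from NADH, passes them along a chain of iron-sulfur clusters to ubiquinone, and pumps protons across the inner mitochondrial membrane. It is shaped like an L. The arm in the matrix holds the catalytic core subunits, and the arm in the membrane holds the proton pumps, which are encoded by mitochondrial DNA. Nuclear accessory subunits surround both arms and are needed for assembly and stability. Heart muscle, which depends on oxidative metabolism, is among the tissues richest in the complex.

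Muscle markers stood far above fibroblast markers in every library, against the label. Summed over 10 genes each, cardiomyocyte markers stood at 12092 to 14884 FPKM (fragments per kilobase of gene model, scaled by the authors to the mapped fragments of the library) in the controls against 18137 to 20004 FPKM after CCL4. Much of the difference in the cardiomyocyte sums lay in Actc1, with means of 1735 FPKM in the controls and 5840 FPKM after CCL4. Tnnt2 and Pln had slightly negative log2 fold changes (-0.06 and -0.04). Fibroblast markers summed to 457 to 736 FPKM in the controls and 584 to 593 FPKM after CCL4. No gene of either list was at 0. Of the cardiomyocyte markers 2 of 10 rose (Actc1 and Myl2), and of the fibroblast markers 6 of 10 (Col1a1, Col1a2, Col3a1, Ddr2, Dpt and Lum). The fibroblast markers Dcn, Gsn and Pdgfra had negative log2 fold changes (-0.29, -0.18 and -0.11) and, like Tcf21 (0.17), did not pass. All 5 red blood cell markers that were tested rose, with sums of 537 to 2268 FPKM in the controls against 2231 to 4092 FPKM after CCL4. Of all rows tested 9.64% rose. Of 8 smooth muscle and pericyte markers 2 rose (Acta2 and Cnn1), of 8 endothelial markers 1 (Kdr), and of 7 macrophage markers tested Cd68 rose and Cd163 fell. The count of fibroblast markers was 6 whichever library was left out. That of cardiomyocyte markers was 4 without control replicate 1 and 1 without any other single library. That of red blood cell markers was 0 on leaving out control replicate 2 or 3 or CCL4 replicate 2 or 3, and 3 on leaving out CCL4 replicate 1. In bulk RNA, fewer cells of a type and less RNA per cell cannot be told apart. Xist was at 0.02 FPKM or less and the Y-linked Ddx3y at 8.63 to 15.02 FPKM in every library. The symbol Nnt, whose product makes mitochondrial NADPH and which carries a known deletion in C57BL/6J mice, stood on 2 rows. One row read 59.5, 90.0 and 70.9 FPKM in the control and 2.27, 2.39 and 2.87 FPKM in the CCL4 libraries. The other was at 115 ± 40.6 and 100.5 ± 8.94 FPKM (SD, n = 3 each). A difference in substrain between the groups and the treatment cannot be told apart in this design.

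All 36 members passed the filter on low values, a mean of at least 1 FPKM, and the lowest single value was 6.06 FPKM. Ndufb2, a small subunit of the membrane arm, was the least abundant, with 7.40, 6.06 and 6.08 FPKM in the controls against 8.33, 7.39 and 7.03 FPKM after CCL4. The groups overlapped. Ndufb9, also of the membrane arm, had a mean over the 6 libraries of 248.1 FPKM against 7.05 FPKM for Ndufb2. These are RNA levels. The assembled complex holds equal copies of nearly all subunits as protein, which was not measured here. A control mean of at least 100 FPKM was reached by 11 members, and 6 had a mean under 30 FPKM. FPKM divides by the length of the gene model, and the lengths used for the deposited values are not given. Merged exons in GENCODE, which need not match those lengths, span 5628 bases for Ndufb2 and 1031 for Ndufb9. The part of length in the gap between Ndufb2 and Ndufb9 was not tested. Across the 36 members the level and the merged exon length had a Spearman rho of -0.28, a description across genes that share libraries. The order of the levels was similar in both groups (Spearman rho 0.98 over the 36 means), and no member moved by more than 6 ranks.

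**Figure D1:**
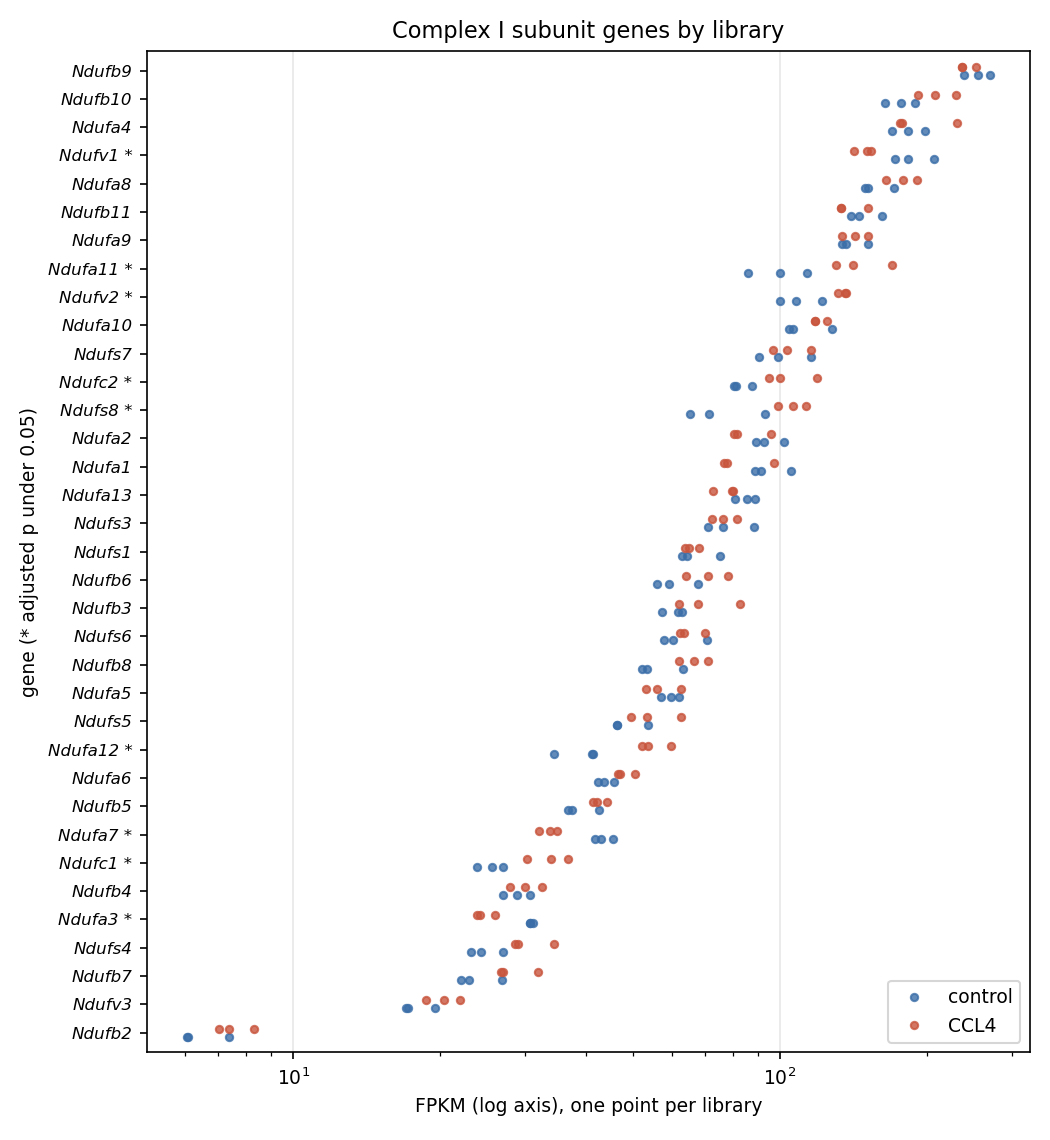
FPKM of 35 complex I subunit genes on a log axis, 1 point per library (blue control, red CCL4), ordered by mean level, with called genes starred. The genes drawn run from Ndufb2 near 7.05 FPKM to Ndufb9 near 248.1 FPKM, and the groups lie close together for most of them.

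In CCL4 libraries 6 of the 36 members rose and 3 fell at an adjusted p under 0.05 (limma on log2(FPKM + 1), adjusted over all 10995 rows tested). The 6 were Ndufv2, Ndufs8, Ndufa11, Ndufa12, Ndufc1 and Ndufc2, and the 3 were Ndufv1, Ndufa3 and Ndufa7. That is 25% of the members, where 31.8% of all rows tested were called. By direction, 16.7% of the members rose against 9.64% of all rows, and 8.33% fell against 22.2%. Without adjustment 13 members had a p under 0.05 (36.1%; 44.5% of all rows). The libraries of both groups did not overlap for 13 members (36.1%; 48.7% of all rows). Every CCL4 library lay above every control library for 9 of them (14.7% of all rows did so) and below for 4 (34.0% of all rows), the latter being Ndufa3, Ndufa7, Ndufa13 and Ndufv1. The median log2 fold change of the members was 0.11 (range -0.36 to 0.55), against -0.09 over all rows tested. Of the 36, 25 had a positive value.

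The 36 genes are spread over many chromosomes, with 5 on chromosome 17, 4 each on chromosomes 1 and 6, 3 on chromosome 19 and 2 on X (Ndufa1 and Ndufb11). Among the called members on chromosome 17, Ndufa7 lies at 33824572 to 33838317 and Ndufv2 at 66078638 to 66101559 (GRCm38, GENCODE). Ndufa12 lies on chromosome 10 at 94198720 to 94221443, Ndufc1 on chromosome 3 at 51404677 to 51408988, and Ndufa3 and Ndufc2 on chromosome 7 at 3617373 to 3620327 and 97400003 to 97407802. Many subunit genes have processed pseudogenes, and 12 of the 36 share at least 10% of their 31-base words with another gene. Of the called members these were Ndufa11 (12.8%) and Ndufa12 (20.7%). Among those not called, Ndufs5 shares 26.5% of its words with the pseudogene BC002163, Ndufs3 21.2% with Gm12251 and Ndufb4 19.1% with Ndufb4c. Mean levels over the 6 libraries were 7.43 FPKM for Gm12251 against 77.7 FPKM for Ndufs3, and 46.35 FPKM for Ndufb4c against 29.4 FPKM for Ndufb4. Exons of Ndufb6, Ndufa13 and Ndufb5 overlap those of Smim27, Tssk6 and Mrpl47 on the opposite strand. Without a stated strand setting, reads of such pairs cannot be told apart, and their values are uncertain. The partners had mean levels of 0.855, 0.142 and 4.72 FPKM, against 66.0, 81.3 and 40.7 FPKM for Ndufb6, Ndufa13 and Ndufb5.

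Single libraries moved the count of called members. It was 10 higher and 3 lower without control replicate 1, 3 and 2 without control replicate 2, 3 and 3 without control replicate 3 or CCL4 replicate 1, 5 and 2 without CCL4 replicate 2, and 2 and 1 without CCL4 replicate 3. Control replicate 1 was the highest of its group for 32 of the 36 members and CCL4 replicate 1 for 33. After median-ratio scaling these counts were 32 and 34. A factor shared by all genes of a library cancels in ratios between members.

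**Figure D2:**
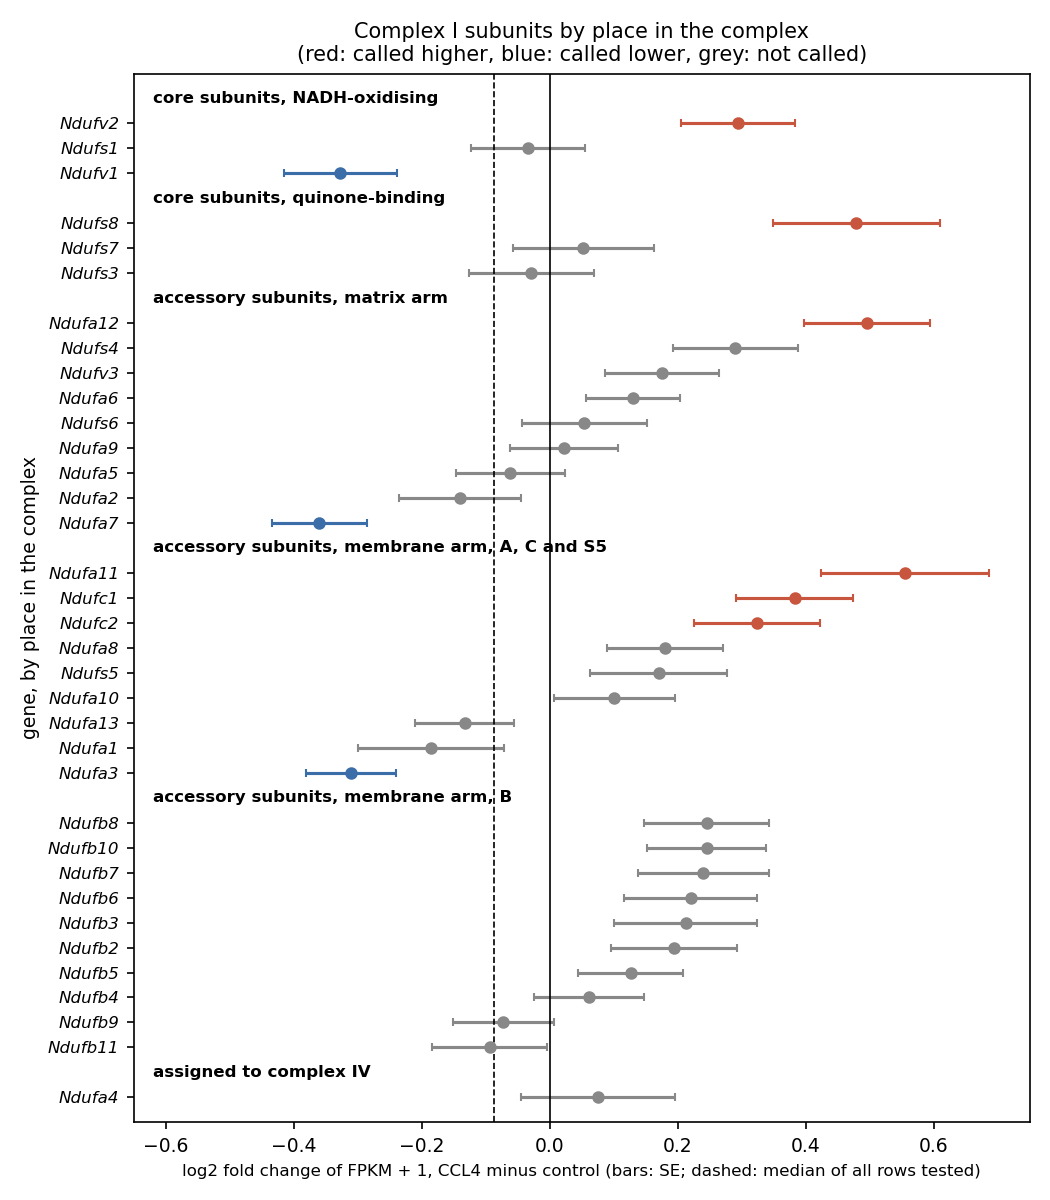
Log2 fold change of FPKM + 1 (CCL4 minus control, bars show SE) for 35 members, grouped by their place in the complex, with a dashed line at the median of all rows tested, -0.09. Called members lie on both sides of 0 in the matrix arm and in the A and C part of the membrane arm, and none of the 10 B subunits is called.

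The NADH-oxidising tip of the matrix arm has 3 core subunits, of which 1 fell, 1 rose and 1 did not pass. Ndufv1, which binds NADH and the flavin that accepts its electrons, read 206.6, 183.3 and 172.5 FPKM in the controls against 153.6, 142.2 and 150.8 FPKM after CCL4. Every CCL4 library lay below every control library. The log2 fold change was -0.33 ± 0.09 (SE; limma adjusted p = 0.0249). Ndufv2, the iron-sulfur protein that sits against it, read 122.1, 100.1 and 107.6 FPKM in the controls against 136.3, 131.4 and 135.9 FPKM after CCL4, all CCL4 libraries being higher (0.29 ± 0.09, limma adjusted p = 0.0375). Ndufs1, the large subunit that carries several iron-sulfur clusters, read 75.3, 64.4 and 62.8 FPKM in the controls against 63.92, 65.02 and 68.24 FPKM after CCL4, and the groups overlapped (-0.03 ± 0.09, limma adjusted p = 0.793). The call of Ndufv1 was lost without control replicate 2 (limma adjusted p = 0.06), CCL4 replicate 2 (0.085) or CCL4 replicate 3 (0.0725), with no filter (0.0578) and with median-ratio scaling (-0.22, 0.129). That of Ndufv2 held without control replicate 1 and was lost on leaving out any other single library (0.23 to 0.31, limma adjusted p 0.0803 to 0.125), with the sum per library made equal (0.14, 0.288) or that outside the mitochondrial genome (0.22, 0.0911), scaled to the members' geometric mean (0.19, 0.17), with no filter (0.0783) and with the replicate number as a block (0.0617). Ndufv2 was thus called in 8 of 18 alternatives and Ndufv1 in 13.

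Among the core subunits that lead electrons to ubiquinone, Ndufs8 rose, while Ndufs3 and Ndufs7 did not pass. Ndufs8, which holds a pair of iron-sulfur clusters, read 93.1, 71.3 and 65.4 FPKM in the controls against 112.9, 98.9 and 106.5 FPKM after CCL4. The groups did not overlap, and the log2 fold change was 0.48 ± 0.13 (SE; limma adjusted p = 0.0259). The call was lost on leaving out control replicate 2 or 3 or CCL4 replicate 1 or 3 (0.37 to 0.47, limma adjusted p 0.0662 to 0.0841), with equal sums (0.32, 0.091) and with no filter (0.0832). Ndufs7, which carries the last cluster of the chain, read 115.5, 99.1 and 90.4 FPKM in the controls against 115.6, 96.7 and 103.4 FPKM after CCL4. Ndufs3 read 88.4, 76.3 and 71.2 FPKM in the controls against 81.4, 72.5 and 76.5 FPKM after CCL4. For Ndufs3 and Ndufs7 the groups overlapped and the log2 fold changes were -0.03 and 0.05 (SE 0.10 and 0.11; limma adjusted p = 0.838 and 0.74).

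Ndufs8 and Ndufv1 lie on the same strand of chromosome 19 in GRCm38, at 3908863 to 3912774 and at 4007384 to 4012806, 94.6 kb apart, and they moved in opposite directions. The ratio of Ndufs8 to Ndufv1 was 0.451, 0.389 and 0.379 in the controls against 0.735, 0.696 and 0.707 after CCL4. The ratio of Ndufv2 to Ndufv1 was 0.591, 0.546 and 0.624 in the controls against 0.888, 0.924 and 0.901 after CCL4. Neither ratio overlapped between groups. This had to follow, because every CCL4 library was higher for Ndufs8 and Ndufv2 and lower for Ndufv1, so it is no separate result. A factor common to all genes of a library cancels in both ratios, and quantile scaling is not such a factor. Both pairs were chosen after their values were seen, so no test is given.

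**Figure D3:**
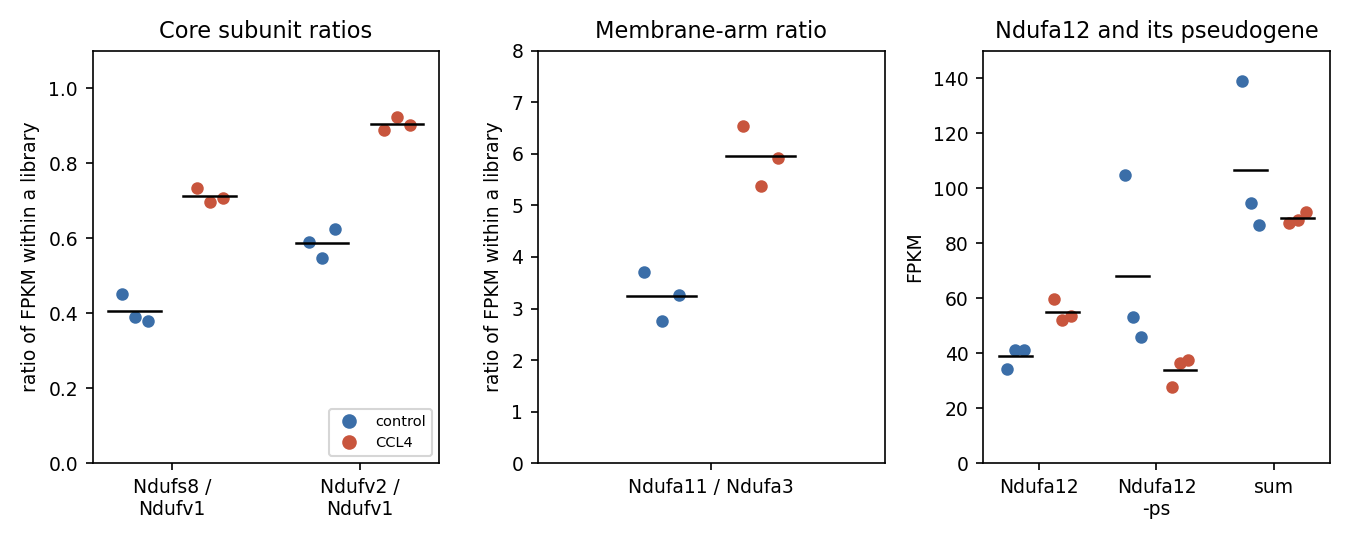
Ratios of FPKM within a library for Ndufs8 and Ndufv2 over Ndufv1 (left) and Ndufa11 over Ndufa3 (middle), and FPKM of Ndufa12, its pseudogene row Ndufa12-ps and their sum (right); points are libraries (blue control, red CCL4) and lines are means. The ratios separate the groups, as they must where the numerator is higher and the denominator lower in every CCL4 library. The sum of Ndufa12 and Ndufa12-ps does not separate them, at 86.8 to 139 FPKM in the controls against 87.5 to 91.2 FPKM after CCL4.

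The upstream sequences of 4 called core and membrane-arm genes are shown because Ndufs8 and Ndufv1 are near neighbours that moved apart, and because Ndufa11 and Ndufv2, which both rose, hold letters of a site known for respiratory genes. They are the 250 bases before the start, from RefSeq on GRCm38.p6, with matched motif letters in capitals. Capitals mark CCAAT (also searched as its reverse complement) in Ndufs8 and the NRF1 motif in Ndufa11 and Ndufv2; the pair of NRF1 matches in Ndufv2 overlap. Ndufv1 holds none of the letters searched in its 250 bases. Ndufs8 also holds CCGGAAG, letters of ETS factors, in the longer window described below, but not wholly within the 250 bases shown.
Ndufs8 (chr19:3912775-3913024, minus strand): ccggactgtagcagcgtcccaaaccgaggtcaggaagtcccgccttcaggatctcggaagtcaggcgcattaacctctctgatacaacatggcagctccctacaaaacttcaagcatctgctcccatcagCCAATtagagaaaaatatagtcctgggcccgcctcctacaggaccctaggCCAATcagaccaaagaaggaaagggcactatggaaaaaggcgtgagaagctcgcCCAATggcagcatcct
Ndufv1 (chr19:4012756-4013005, minus strand): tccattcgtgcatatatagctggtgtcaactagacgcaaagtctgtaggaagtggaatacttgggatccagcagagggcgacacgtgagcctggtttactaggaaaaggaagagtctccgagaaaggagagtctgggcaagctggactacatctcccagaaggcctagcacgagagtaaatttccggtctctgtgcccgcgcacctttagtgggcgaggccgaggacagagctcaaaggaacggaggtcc
Ndufa11 (chr17:56717512-56717761, plus strand): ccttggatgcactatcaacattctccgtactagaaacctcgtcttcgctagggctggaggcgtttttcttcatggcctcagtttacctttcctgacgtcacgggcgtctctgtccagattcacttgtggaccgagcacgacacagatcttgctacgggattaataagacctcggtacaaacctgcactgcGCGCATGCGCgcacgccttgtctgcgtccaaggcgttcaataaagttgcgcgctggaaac
Ndufv2 (chr17:66101560-66101809, minus strand): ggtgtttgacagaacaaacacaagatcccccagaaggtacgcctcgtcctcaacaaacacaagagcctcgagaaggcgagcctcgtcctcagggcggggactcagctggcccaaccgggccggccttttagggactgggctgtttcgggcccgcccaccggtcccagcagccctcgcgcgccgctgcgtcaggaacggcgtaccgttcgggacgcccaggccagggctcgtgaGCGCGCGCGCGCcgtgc
Windows from 250 bases before to 50 after the start were found for 32 members. The letters of NRF1, a factor known to drive respiratory genes (GCGC, any 2 bases, then GCGC), stood on either strand in the windows of 8 of the 32 members (25%), against 7.00% of 27025 genes. The 8 were Ndufa5, Ndufa6, Ndufa8, Ndufa11, Ndufb4, Ndufs5, Ndufs6 and Ndufv2, of which 2 rose and the others did not pass. AAGATGGC, letters of the YY1 site, stood in 7 (21.9%; 3.19% of all genes), CCGGAAG of ETS factors in 4 (12.5%; 9.93%), AAGGTCA of the estrogen-related receptors in 3 (9.38%; 5.38%) and CCAAT in 10 (31.3%; 41.1%). Each match is a description of letters and says nothing of binding.

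Of the 9 accessory subunits of the matrix arm, 1 rose and 1 fell. Ndufa7 read 42.8, 45.5 and 41.7 FPKM in the controls against 34.9, 33.7 and 32.0 FPKM after CCL4, every CCL4 library being lower (-0.36 ± 0.07 SE, limma adjusted p = 0.00888). The call held when any single library was left out and was lost with median-ratio scaling (-0.25, adjusted p = 0.0602). Ndufa12, which replaces the assembly factor Ndufaf2 late in assembly, read 34.3, 41.2 and 41.0 FPKM in the controls against 59.7, 52.0 and 53.5 FPKM after CCL4, every CCL4 library being higher (0.50 ± 0.10 SE, limma adjusted p = 0.00748), and was called in each of the 18 alternatives run on the whole table.

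The rise of Ndufa12 has to be read beside its processed pseudogene. Ndufa12-ps, named Gm15920 in GENCODE, shares 20.2% of the 31-base words of the Ndufa12 transcripts. It read 104.7, 53.2 and 45.8 FPKM in the controls against 27.8, 36.5 and 37.7 FPKM after CCL4, and it fell (-0.90 ± 0.28 SE, limma adjusted p = 0.0408). Control replicate 1 stood above the rest, and without it the fold change was -0.54 (limma adjusted p = 0.0256). The call was lost on leaving out control replicate 2 or any single CCL4 library (-0.76 to -1.02, limma adjusted p 0.0526 to 0.133), with no filter (0.137), with median-ratio (0.0635) or quantile scaling (0.0784) and with the replicate number as a block (0.0636). The sum of both rows was 139, 94.5 and 86.8 FPKM in the controls against 87.5, 88.4 and 91.2 FPKM after CCL4, and the groups overlapped (difference on the log2 scale -0.23, not tested). Without control replicate 1 this difference was -0.024. Each row's FPKM is divided by the length of its own gene model, so this sum is not a sum of reads. How the deposited values divide reads between both rows is not given, so the direction for Ndufa12 is uncertain.

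The other 7 members of this group did not pass. Ndufs4, which holds the NADH-oxidising tip in place, came nearest, with 27.0, 24.3 and 23.2 FPKM in the controls against 34.3, 28.5 and 29.0 FPKM after CCL4 (0.29 ± 0.10 SE, limma adjusted p = 0.0535). Its groups did not overlap, and it passed in 6 alternatives, among them without control replicate 1 (0.35, limma adjusted p = 0.0334) and with library weights (0.26, 0.0385), median-ratio scaling (0.40, 0.0303) or quantile scaling (0.41, 0.0154). Ndufa2, Ndufa5, Ndufa6, Ndufa9, Ndufs6 and Ndufv3 had log2 fold changes from -0.14 to 0.18 (limma adjusted p 0.164 to 0.855).

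Among the 9 A, C and S5 subunits of the membrane arm, 3 rose and 1 fell, and their median log2 fold change was 0.17. Ndufa11, an inner-membrane subunit needed for a stable complex, had the largest fold change of all 36 members. It read 113.8, 85.9 and 100.1 FPKM in the controls against 170.1, 130.2 and 141.4 FPKM after CCL4, which did not overlap (0.55 ± 0.13 SE, limma adjusted p = 0.0151). It was called in 17 of 18 alternatives, all but the one without a filter on low values (adjusted p = 0.0565). Its position on chromosome 17 is 56717767 to 56722141, and 9.3% of its 31-base words occur in the pseudogene Ndufa11b, whose mean over the 6 libraries was 0.04 FPKM.

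Ndufc1 and Ndufc2, which bind each other beside the mitochondrially encoded ND2, both rose. Ndufc1 read 27.0, 25.6 and 23.9 FPKM in the controls against 36.7, 30.3 and 33.8 FPKM after CCL4 (0.38 ± 0.09 SE, limma adjusted p = 0.0159). Ndufc2 read 87.7, 80.5 and 81.3 FPKM in the controls against 118.9, 95.0 and 100.1 FPKM after CCL4 (0.32 ± 0.10 SE, limma adjusted p = 0.0383). The groups did not overlap for either. Ndufc1 was lost without CCL4 replicate 3 (0.38, limma adjusted p = 0.0574), with equal sums (0.23, 0.0837) and scaled to the members' geometric mean (0.28, 0.055). Ndufc2 was lost on leaving out control replicate 2 or 3 or CCL4 replicate 1 or 3 (0.23 to 0.35, limma adjusted p 0.0795 to 0.108), with no filter (0.089), with equal sums (0.17, 0.207) or equal sums outside the mitochondrial genome (0.25, 0.0639), and scaled to the members' geometric mean (0.22, 0.111).

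Ndufa3, a small subunit of the membrane arm, fell. It read 30.7, 31.1 and 30.7 FPKM in the controls against 26.0, 24.2 and 23.9 FPKM after CCL4, every CCL4 library being lower (-0.31 ± 0.07 SE, limma adjusted p = 0.0126). The call was lost without CCL4 replicate 3 (-0.29, limma adjusted p = 0.0605) and with median-ratio (-0.20, 0.0907) or quantile scaling (-0.17, 0.116). The ratio of Ndufa11 to Ndufa3, also chosen after its values were seen, was 3.71, 2.76 and 3.26 in the controls against 6.55, 5.38 and 5.93 after CCL4. That ratio could not overlap either, as Ndufa11 was higher and Ndufa3 lower in every CCL4 library. Ndufa1, Ndufa8, Ndufa10, Ndufa13 and Ndufs5 did not pass (-0.19 to 0.18, limma adjusted p 0.161 to 0.443).

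None of the 10 B subunits, which make up much of the far part of the membrane arm, passed, while 8 of the 10 had a positive log2 fold change and their median was 0.20. Their mean levels ran from 7.05 FPKM for Ndufb2 to 248.1 FPKM for Ndufb9. Fold changes lay between -0.09 for Ndufb11 and 0.25 for Ndufb8. Without adjustment Ndufb7, Ndufb8 and Ndufb10 had p-values of 0.0464, 0.0357 and 0.0298 (limma; adjusted 0.106, 0.0882 and 0.0775). Ndufb10 read 189.0, 177.1 and 164.3 FPKM in the controls against 229.5, 192.4 and 207.9 FPKM after CCL4, and was the 1 member of this group whose libraries did not overlap. Ndufb7, Ndufb8 and Ndufb10 passed without control replicate 1 (0.29 to 0.33, limma adjusted p 0.0214 to 0.0481) and with the sum outside mitochondrial and nuclear pseudogene rows made equal (0.29 to 0.30, 0.0348 to 0.0488). With quantile scaling 5 of the 10 passed, Ndufb5 and Ndufb6 with them (0.25 to 0.38, limma adjusted p 0.0157 to 0.0414).

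Ndufa4, the row now assigned to complex IV, read 198.3, 170.0 and 183.2 FPKM in the controls against 231.1, 177.7 and 175.9 FPKM after CCL4, which overlapped (0.08 ± 0.12 SE, limma adjusted p = 0.657). Its paralogue Ndufa4l2, which hypoxia is known to induce, rose from 10.5 ± 0.601 to 15.6 ± 1.73 FPKM (SD, n = 3 each; 0.53 ± 0.10 SE, limma adjusted p = 0.00529). Ndufab1, the mitochondrial acyl carrier protein that is also a complex I subunit, rose from 20.6 ± 2.30 to 26.9 ± 2.17 FPKM (SD, n = 3 each; 0.37 ± 0.10 SE, limma adjusted p = 0.0244), a call lost on leaving out control replicate 2 or 3 or CCL4 replicate 1 or 3 (0.31 to 0.39, adjusted p 0.0597 to 0.0806), with no filter (0.0631), with equal sums (0.22, 0.128) and scaled to the members' geometric mean (0.27, 0.0609).

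The balance of directions depended on how libraries were scaled. Rows of the mitochondrial genome took 48.6% to 50.7% of the FPKM sum in the controls against 52.0% to 53.2% after CCL4. With the sum per library made equal (as TPM does), 2 members were higher and 6 lower. With the sum outside the mitochondrial genome made equal it was 4 and 3, and with its 7 nuclear pseudogene rows also left out 10 and 3. With median-ratio scaling it was 9 and 0, and with quantile scaling 16 and 2. The median of all rows moved with the scaling, from -0.21 for equal sums to -0.00277 with median ratios. Relative to that median the members' median was higher by 0.20 as deposited and by 0.13 to 0.25 over the 18 alternatives. Scalings with a single factor per library, all but the quantile one, shift both medians nearly alike. They could hardly change this difference and are no test of it. Scaled to the geometric mean of the 36 members in each library, which shows change relative to the complex, 3 members were higher and 3 lower, and 6 of the 9 calls were kept.

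**Figure D4:**
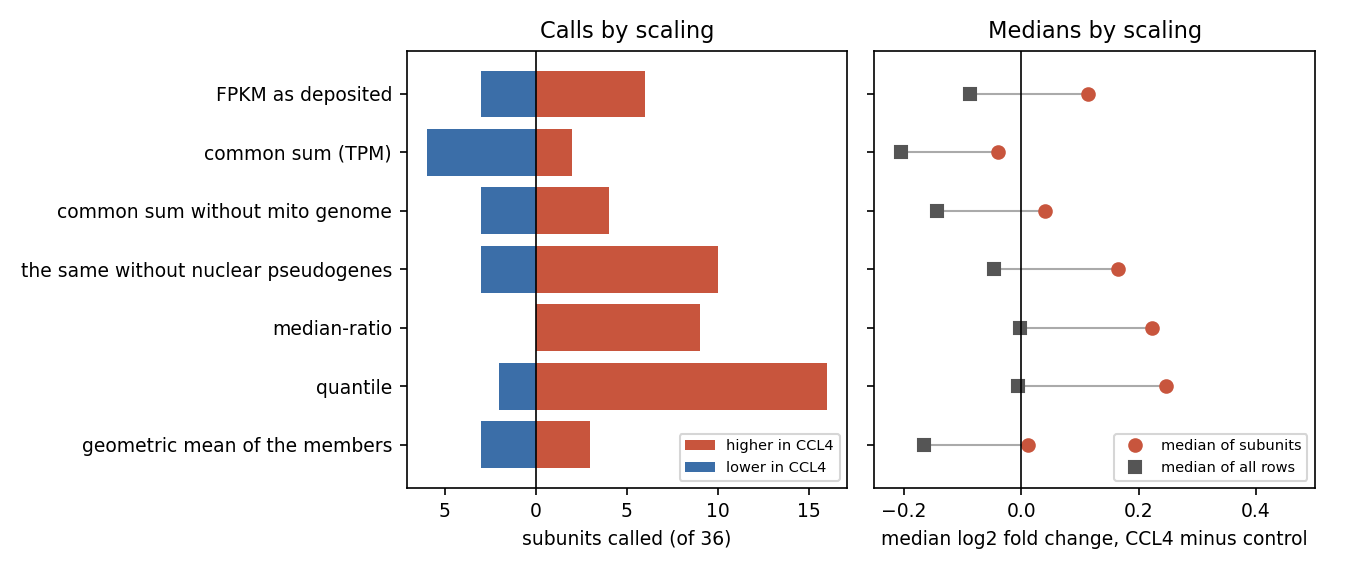
Left, number of the 36 members called higher (red) or lower (blue) in CCL4 under each scaling; right, median log2 fold change of the members (circles) and of all rows tested (squares). The split of calls runs from 2 higher and 6 lower to 16 higher and 2 lower. The members' median lies above that of all rows in each scaling shown. All scalings but the quantile one use a single factor per library, which moves both medians nearly alike.

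The membrane arm also holds 7 subunits encoded in the mitochondrial genome, of which 3 rose (42.9%; 9.64% of all rows rose) and none of the others fell. Mt-Nd1, mt-Nd2 and mt-Nd3 had log2 fold changes of 0.34, 0.50 and 0.38 (SE 0.08, 0.11 and 0.10; limma adjusted p = 0.0136, 0.0123 and 0.026). The level of mt-Nd2 was 11313, 13180 and 12861 FPKM in the controls against 16421, 16317 and 20209 FPKM after CCL4, without overlap. The remaining 4, mt-Nd4, mt-Nd4l, mt-Nd5 and mt-Nd6, lay between -0.11 and 0.22 and did not pass. With quantile scaling 1 of the 7 was called higher and 2 lower, mt-Nd5 (-0.24, limma adjusted p = 0.000345) and mt-Nd6 (-0.13, 0.0047), while mt-Nd1 was at -0.028 and mt-Nd3 at -0.044. The call of mt-Nd1 was lost without control replicate 2 (limma adjusted p = 0.0623), and that of mt-Nd3 without control replicate 2, CCL4 replicate 1 or CCL4 replicate 2 (0.32 to 0.39, 0.068 to 0.0804), with equal sums (0.23, 0.084) and with the replicate number as a block (0.0542). With no filter, or scaled to the geometric mean of the members, none of the 7 was called. The 7 nuclear pseudogene rows share 97.2% to 100% of their 31-base words with the mitochondrial genome, so how reads were divided between them bears on these levels. The summed mt-Nd level was 22.0, 28.2 and 28.5 times the summed level of the 36 members in the controls against 25.3, 30.3 and 29.5 times after CCL4, and these ratios overlapped.

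Assembly factors build complex I and are not part of it once it is finished. Of 20 tested, 9 rose (45%; 9.64% of all rows rose) and none of the others fell, with a median log2 fold change of 0.23. Tmem126b, which helps to assemble the ND2 part of the membrane arm, rose from 4.90 ± 0.236 to 7.02 ± 0.157 FPKM (SD, n = 3 each; limma adjusted p = 0.00301). Its partner Ndufaf1 rose from 15.9 ± 2.27 to 23.4 ± 1.63 FPKM (adjusted p = 0.00872), Ndufaf4 from 9.35 ± 0.81 to 12.8 ± 0.702 FPKM (adjusted p = 0.00848) and Dmac2, named for the distal membrane arm, from 9.51 ± 0.926 to 13.0 ± 0.565 FPKM (adjusted p = 0.00862). The number higher was 5 without control replicate 2 or CCL4 replicate 3, 4 with equal sums, 5 with no filter, 6 with the replicate number as a block and 13 with quantile scaling, and in none of the 18 alternatives was an assembly factor called lower.

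For comparison, 5 of 44 subunits of complexes II to V rose and 2 fell (15.9% called; 31.8% of all rows), with a median of 0.02. By direction that is 11.4% higher (9.64% of all rows) and 4.55% lower (22.2%). The number higher grew to 15 on leaving out control replicate 1. It was 0 on leaving out control replicate 2 or 3 or CCL4 replicate 3, and 1 on leaving out CCL4 replicate 1 or 2. With equal sums it was 0 higher and 10 lower, and with equal sums outside the mitochondrial genome 2 and 6. Other scalings went the other way. Median-ratio scaling gave 10 higher and 0 lower, and quantile scaling 12 and 1. Equal sums without mitochondrial and nuclear pseudogene rows gave 11 and 1. Complex III, which takes electrons from ubiquinol, had a median of 0.23 over 9 genes, and Cyc1, its cytochrome, rose (0.42 ± 0.12 SE, limma adjusted p = 0.0264). That call held without control replicate 1 and was lost without any other single library (0.35 to 0.45, limma adjusted p 0.0567 to 0.0872), with equal sums (0.27, 0.118) and with no filter (0.0814). Complex II had a median of 0.03 over 4 genes, complex IV of -0.07 over 14 and complex V of 0.02 over 17. The difference between the complexes was not tested.

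Of 8 regulators of respiratory genes tested, 1 rose (12.5%; 9.64% of all rows) and 3 fell (37.5%; 22.2% of all rows). Ppargc1a, the coactivator PGC-1 alpha that drives mitochondrial gene expression, read 16.3, 18.0 and 14.5 FPKM in the controls against 8.61, 9.73 and 10.5 FPKM after CCL4 (-0.70 ± 0.10 SE, limma adjusted p = 0.00223), and it was called in each of the 18 alternatives. Gabpa, a factor that binds ETS letters, fell by 0.33 on the log2 scale (limma adjusted p = 0.0229), Yy1 fell by 0.29 (0.0421) and Tfam, which packages and transcribes mitochondrial DNA, rose by 0.32 (0.0436). The calls of Gabpa, Yy1 and Tfam were each lost under several alternatives, Tfam without any single library other than control replicate 1 (0.27 to 0.35, adjusted p 0.0758 to 0.13), Yy1 without any other than CCL4 replicate 2 (-0.21 to -0.31, 0.0708 to 0.0952) and Gabpa without control replicate 2 or 3 or CCL4 replicate 2 (-0.33 to -0.34, 0.0507 to 0.0582). Esrra, Esrrg, Gabpb1 and Ppargc1b did not pass. Nrf1 was at 1.08 ± 0.0265 and 0.857 ± 0.115 FPKM (SD, n = 3 each), under the filter, and was not tested. The part of cell makeup in these results, with markers of several cell types that differ between the groups, was not tested.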

How the data were processed

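The 6 libraries comprised 3 control and 3 CCL4. The authors deposited FPKM values per gene and library, made, per the submitters' processing notes, with StringTie 2.1.6 on GRCm38. Aligner, annotation and strand setting of the quantification (each not given in the sources used here) stayed unknown. By the labels' protocols, oligo(dT)-selected RNA was sequenced from both ends. Fragment counts were not used. From low values of single-exon genes a rough depth of 29900000 to 42600000 fragments per library was estimated, but only 26.7% to 34% of those values lay within 0.1 of a whole fragment.

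Rows whose mean reached 1 FPKM were tested as log2(FPKM + 1) with limma 3.58.1 in R 4.3.3 (eBayes with trend, two-sided), with Benjamini-Hochberg adjustment over all 10995 rows and a call at an adjusted p under 0.05. Fold changes on this log2 scale understate changes of low genes. The fit was also run on simulated data with independent noise and as many rows changed up as down. These data lack shifts shared by a whole library, so they cannot test how the calls depend on scaling. The members and lists were chosen with earlier results of these data known. Values per library are given for all called members, the core subunits, the lowest member and Ndufa4, except 1 member that is not reported here singly, and for up to 4 called genes of other lists. Ndufs4, Ndufb10 and the ratios were added to these once their values had been seen. Positions and shared 31-base words come from GENCODE M21, where all 36 symbols matched. Alternatives comprised a pseudocount of 0.1, no filter or a mean of at least 5, 4 scalings, no trend, library weights, the replicate block and leaving out each library. Scalings without nuclear pseudogenes and to the members' geometric mean, and the sum with Ndufa12-ps, were added after the data were seen.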

Additional observations from a re-analysis of the deposited data

How the results depend on the processing

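The number of members called moved with the setting. Leaving out 1 library gave 2 to 10 higher and 1 to 3 lower members, a median of 0.08 to 0.17, and 642 to 1137 higher and 1546 to 2121 lower rows in the whole table. With equal sums (TPM) 2 members were higher and 6 lower and the median turned to -0.040, with 618 rows higher and 4234 lower. With median-ratio scaling 0 members were lower, and 1713 rows were higher and 1574 lower. With quantile scaling 16 members and 1722 rows were higher. With no filter 2 members were higher, and at a mean of at least 5 FPKM 655 rows were higher and 1510 lower, where 4915 rows were tested. Scaled without mitochondrial and nuclear pseudogene rows, 10 members were higher. Scaled to the members' geometric mean, 3 members and 593 rows were higher. Quantile scaling turned mt-Nd1 (-0.028) and mt-Nd3 (-0.044) and gave calls of lower mt-Nd5 (-0.24) and mt-Nd6 (-0.13). Summing its FPKM, not its reads, with that of the pseudogene row turned Ndufa12 (-0.23, and -0.024 without control replicate 1). The cause was not tested.

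Over all rows tested, the replicate numbers gave no clear pairing of the libraries. Among the 36 members, replicate 1 was the highest of its group for 32 in the controls and 33 in CCL4. A batch shared by same-numbered libraries was not tested. Deviations from the group means of same-numbered libraries correlated at -0.0640, 0.0461 and -0.0380, and not every library correlated best with its own number. With the replicate block 5 members were higher and 3 lower, and 861 rows were higher and 1790 lower. Over single members, 584 of the values under alternatives kept their side of the threshold, 37 lost a call and 27 gained one. Of the 584, 46 changed sign, all of them values that were not called, in 16 members.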
